A study of Mus musculus with 8 samples.

Results

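Potassium channel subunit genes were examined in upper neocortical layers of newborn mice that had lost the transcription factor Bcl11a. The members were all genes whose symbol in the array's annotation begins with Kcn, each represented by its brightest probe set with a single gene symbol, which gave 92 of the 19938 genes tested. Total RNA came from layers II to IV, cut out by laser from pups at postnatal day 2, and each of 8 pups was hybridised to 1 Affymetrix mouse gene array. The 4 control pups were Bcl11a flox/+ with Emx1 IRESCre/+, and the 4 mutant pups were Bcl11a flox/flox with Emx1 IRESCre/+. All pups therefore carried the Cre knocked into the Emx1 locus, which acts in the progenitors of cortical excitatory neurons and of much of the cortical glia, and the controls had lost 1 Bcl11a allele where the mutants had lost 2. Interneurons, endothelial cells and microglia arise outside that lineage. The comparison asks which genes differ when the second allele is removed.

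Potassium channels let potassium leave a neuron and so set its resting potential, the shape and repetition of its action potentials and its response to inhibitory transmitters. Their pore is built from 4 pore domains, and the subfamilies differ in what opens it: membrane voltage for the Kcna, Kcnb, Kcnc, Kcnd, Kcnh and Kcnq families, calcium for Kcnma1 and the Kcnn family, sodium for the Kcnt family, and G proteins, ATP or the potassium gradient itself for the inward rectifiers of the Kcnj family. The Kcnk family forms tandem-pore leak channels, and the Kcnip, Kcnab, Kcne and Kcnmb families encode auxiliary subunits that bind a pore subunit and change its gating or its transport to the membrane. In the postnatal cortex these channels shape the maturing excitability of projection neurons.

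The targeted gene differed as labelled. Bcl11a read 10.59, 10.52, 10.34 and 10.34 on the control arrays and 8.56, 8.85, 8.37 and 8.75 on the mutant arrays (log2 intensity), a log2 difference of -1.82 (SE 0.10, adjusted p = 4.9e-07). A log2 difference is always the mutant mean less the control mean. Rose, fell and changed are used for genes with an adjusted p under 0.05 (limma, Benjamini-Hochberg over all 19938 genes). Array medians lay between 4.83 and 4.91, and correlations between arrays, taken across genes, between 0.991 and 0.997. Array weights from limma, lower for arrays that vary more, ran from 0.556 (control 1) to 1.33 (control 4). Xist was high on 2 control arrays and 1 mutant array, so that both groups held pups of both sexes. On these 3 arrays the Y-linked genes Eif2s3y, Kdm5d and Uty read at most 4.31, which was taken as an empirical floor. Background differs between probe sets, since Sry read between 5.24 and 5.54 on all 8 arrays, and readings above the floor may still be background.

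Of the 92 Kcn genes, 11 changed in the mutant layers. Of these, 5 rose (Kcnd3, Kcnd2, Kcnmb4, Kcnj16 and the antisense RNA Kcnmb4os2) and 6 fell (Kcnt2, Kcnj3, Kcnc2, Kcnh7, Kcnh3 and Kcnh5). That is 12% of the members, beside 4.15% of all genes tested. The share that rose was 5.43%, beside 2.36% of all genes, and the share that fell was 6.52%, beside 1.79%. Both means of 19 Kcn genes lay at or below the floor, and none of those changed. Of the 73 others 15.1% changed, beside 5.95% of all genes above the floor. Control and mutant values did not overlap for 15 Kcn genes (16.3%), beside 9.25% of all genes. An unadjusted p under 0.05 (limma) was found for 26 of the 92 Kcn genes, beside 2789 of all 19938 genes. Later counts of unadjusted p are to be read beside that background. The median log2 difference was 0.04 over the members and 0.02 over all genes, and the median absolute difference was 0.11 and 0.07. The largest rise was 1.73-fold (Kcnd3) and the largest fall 1.52-fold (Kcnt2).

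**Figure D1:**
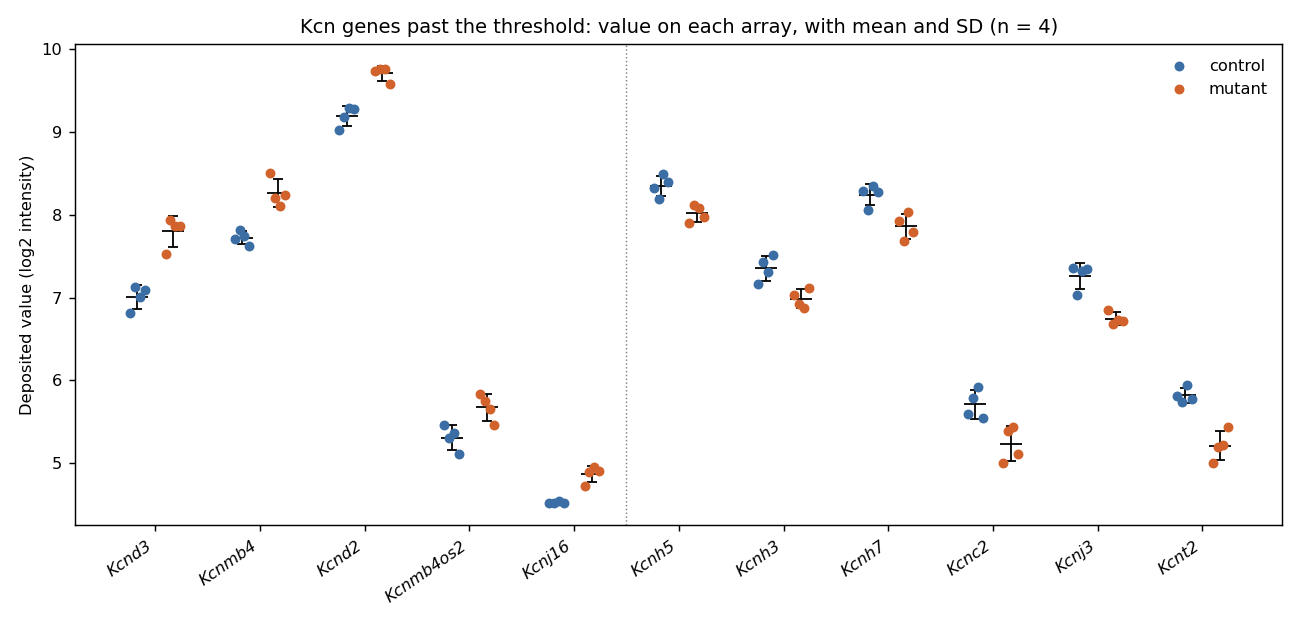
Deposited value in log2 intensity (vertical axis) of the 11 Kcn genes past the threshold on each of the 4 control and 4 mutant arrays, with the mean and SD of each group, ordered from the largest rise to the largest fall. The groups do not overlap for any of these genes except Kcnmb4os2, where the highest control value is 5.47 and the lowest mutant value 5.46. Levels of different genes come from different probe sets and are not comparable.

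The subfamily with the largest differences was Kcnd, which encodes Kv4 subunits of the fast, transient A-type current that delays firing and damps backpropagating action potentials in dendrites. Kcnd3, which encodes Kv4.3, read 6.81, 7.13, 7.01 and 7.09 in the controls and 7.53, 7.94, 7.87 and 7.86 in the mutants. Every mutant value lay above every control value, and the rise was 1.73-fold (95% interval 1.49 to 2.00, log2 difference 0.79, SE 0.10, adjusted p = 0.000308). Kcnd2, which encodes Kv4.2, the main A-type subunit of pyramidal cell dendrites, read 9.02, 9.18, 9.29 and 9.28 in the controls and 9.74, 9.76, 9.76 and 9.57 in the mutants. Its groups were also separate, with a 1.43-fold rise (95% interval 1.28 to 1.60, log2 difference 0.52, SE 0.08, adjusted p = 0.00118). Kcnd1, which encodes Kv4.1, did not pass: its log2 difference was -0.19 (95% interval -0.35 to -0.04, adjusted p = 0.202). The difference between Kcnd3 and Kcnd1 within an array was 1.68 ± 0.19 in controls and 2.67 ± 0.17 in mutants (SD, n = 4). The shift was 0.98 for Kcnd3 and 0.71 for Kcnd2 relative to Kcnd1. Such shifts between subunits are given without a test throughout, since the genes paired were chosen by their differences. Of 10 pairs of a changed gene with the largest difference among the members of its subfamily that did not pass, 9 separated the groups. Each of these changed genes separated the groups by itself, so the choice of pairs largely set that count.

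The sequences upstream of Kcnd3 and Kcnd2, which rose together, and of Kcnh5 and Kcnh7, which fell together, are given to show the 250 bases that precede each annotated start site. They come from RefSeq, build GRCm38.p6, and each is written in the direction of the gene. Capitals mark TGACCA, a short sequence that BCL11A is known to bind, searched on both strands.
Kcnd3 (chr3:105451640-105451889, plus strand): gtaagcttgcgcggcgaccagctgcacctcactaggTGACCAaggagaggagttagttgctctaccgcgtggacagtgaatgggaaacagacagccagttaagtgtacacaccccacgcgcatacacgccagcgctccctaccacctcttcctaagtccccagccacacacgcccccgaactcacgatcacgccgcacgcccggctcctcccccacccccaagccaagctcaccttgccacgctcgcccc
Kcnd2 (chr6:21215096-21215345, plus strand): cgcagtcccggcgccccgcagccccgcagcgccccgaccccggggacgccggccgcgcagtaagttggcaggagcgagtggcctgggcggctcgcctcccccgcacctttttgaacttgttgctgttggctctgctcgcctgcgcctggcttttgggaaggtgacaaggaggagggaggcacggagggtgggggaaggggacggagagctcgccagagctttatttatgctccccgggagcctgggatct
Kcnh5 (chr12:75177333-75177582, minus strand): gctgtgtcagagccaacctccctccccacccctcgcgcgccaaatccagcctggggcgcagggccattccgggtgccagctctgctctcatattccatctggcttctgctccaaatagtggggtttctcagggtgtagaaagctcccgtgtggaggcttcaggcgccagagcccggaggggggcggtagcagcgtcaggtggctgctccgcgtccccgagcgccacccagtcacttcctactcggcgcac
Kcnh7 (chr2:63184288-63184537, minus strand): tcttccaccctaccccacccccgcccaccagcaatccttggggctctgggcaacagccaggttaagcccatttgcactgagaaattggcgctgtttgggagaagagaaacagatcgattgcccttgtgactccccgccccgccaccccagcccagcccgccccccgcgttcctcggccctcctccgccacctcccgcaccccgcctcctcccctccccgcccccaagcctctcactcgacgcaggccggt

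Of these 4 windows, that of Kcnd3 held 1 match to TGACCA and the others held none. RefSeq windows were matched by symbol for 70 of the 92 Kcn genes and for 10 of the 11 that changed, and Kcnd3 was the only one of those 10 with a match. TGACCA occurred in any window of 8 of the 70 Kcn genes (11.4%, counted by gene). Counted by window, it occurred in 11.4% of all 32851 windows of that length. These shares are not the same measure, since a gene can have several windows. The GC content of the 4 printed windows lay between 62.8% and 68.8%. Over all 16 windows of the changed genes it ran from 42.8% (Kcnj16) to 83.6% (Kcnmb4). The median was 52.4% over all windows and 58.8% over the 95 Kcn windows. A match describes the letters alone, and binding was not measured here.

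Kv4 pores work in a complex with the calcium-binding Kcnip proteins (KChIPs) and with the peptidase-like membrane proteins Dpp6 and Dpp10, which speed gating and carry the pore to the membrane. None of these 6 partner genes passed the test, and none of the 4 Kcnip genes had an unadjusted p under 0.05 (limma). The log2 differences were 0.03 (95% interval -0.15 to 0.20) for Kcnip1, 0.12 (-0.08 to 0.32) for Kcnip2, 0.13 (-0.05 to 0.31) for Kcnip3 and 0.15 (-0.04 to 0.33) for Kcnip4. With the arrays shifted to one median that of Kcnip1 was -0.01. For Dpp6 the difference was 0.17 (95% interval -0.06 to 0.39), and for Dpp10 it was 0.20 (-0.04 to 0.44). Measured within each array, the difference between Kcnd3 or Kcnd2 and the partner did not overlap between the groups in 11 of 12 pairs. The exception was Kcnd2 with Dpp10, where the shift was 0.31. Shifts of Kcnd3 ran from 0.59 relative to Dpp10 to 0.76 relative to Kcnip1 and those of Kcnd2 from 0.31 to 0.49. These pairs were chosen after the values had been seen. The 12 pairs reuse Kcnd3 and Kcnd2, whose own groups did not overlap, so they are not separate observations.

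**Figure D2:**
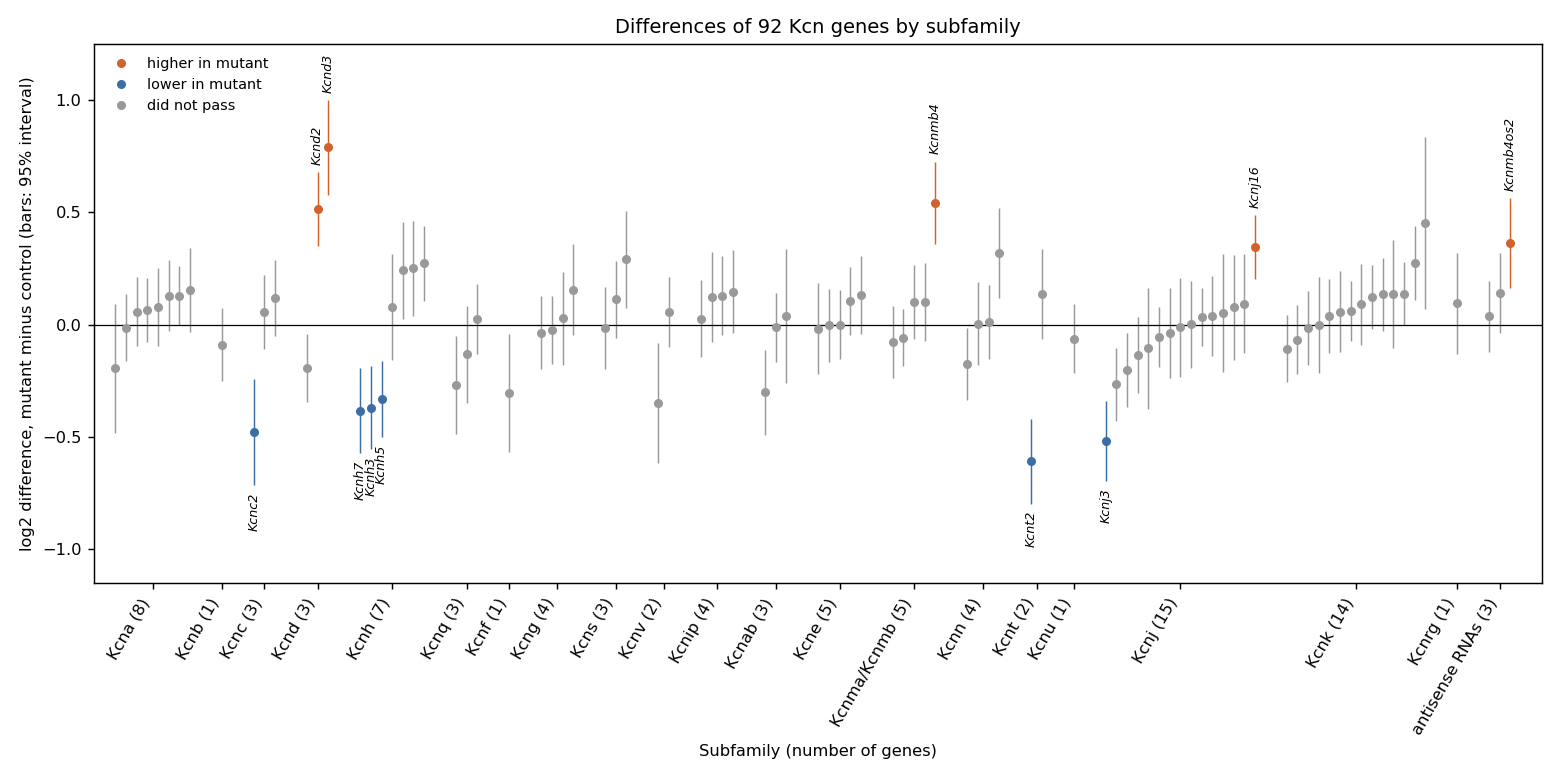
Log2 difference, mutant minus control, of each of the 92 Kcn genes (vertical axis, bars are 95% intervals of the fit), grouped by subfamily with the number of genes in each. The 2 Kcnd genes that rose stand at 0.79 and 0.52, the 3 Kcnh genes that fell lie between -0.38 and -0.33, and the other 4 Kcnh genes lie between 0.08 and 0.27.

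In the Kcnh family, whose voltage-gated channels resemble the ether-a-go-go channel of the fly, 3 of 7 members fell and 4 did not pass. Kcnh7, which encodes the Erg3 channel, read 8.29, 8.06, 8.35 and 8.28 in the controls and 7.92, 7.68, 8.04 and 7.80 in the mutants. The highest mutant value lay just below the lowest control value, and the fall was 1.30-fold (log2 difference -0.38, SE 0.09, adjusted p = 0.0241). Kcnh3, which encodes the Elk2 channel of forebrain neurons, read 7.17, 7.43, 7.31 and 7.52 in the controls and 7.03, 6.92, 6.87 and 7.12 in the mutants. All controls lay above all mutants, the nearest being control 1 and mutant 4, with a 1.29-fold fall (log2 difference -0.37, SE 0.09, adjusted p = 0.0252). Kcnh5, which encodes the Eag2 channel, read 8.32, 8.19, 8.49 and 8.39 in the controls and 7.90, 8.12, 8.08 and 7.97 in the mutants. Its groups were separate as well, and the fall was 1.26-fold (log2 difference -0.33, SE 0.08, adjusted p = 0.0301).

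The 4 other Kcnh genes had log2 differences above 0, also under both other scalings of the arrays: 0.27 for Kcnh4 (95% interval 0.11 to 0.44, adjusted p = 0.0724), 0.25 for Kcnh2, 0.24 for Kcnh8 and 0.08 for Kcnh1. Control and mutant values of Kcnh4, which encodes another Elk channel, did not overlap, and it passed without the dimmest 50% of genes. Relative to Kcnh4 within each array, Kcnh3, Kcnh5 and Kcnh7 were lower in all mutants than in any control, by 0.64, 0.60 and 0.66 on the log2 scale, a separation to which the choice of Kcnh4 contributes. Each of the 3 calls depended on single arrays. Arrays whose removal ended the call were controls 2 and 4 and mutants 2 and 3 for Kcnh3 (highest adjusted p = 0.0896, limma). For Kcnh7 they were controls 3 and 4 and mutants 2 and 4 (0.0875). For Kcnh5 they were controls 3 and 4 and mutants 1, 3 and 4 (0.0961), and its call also ended with inferred sex as a covariate (0.0645).

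Of the 3 Kcnc genes, which encode the rapidly closing Kv3 channels of fast-firing neurons, Kcnc2 fell. It encodes Kv3.2 and read 5.59, 5.79, 5.93 and 5.55 in the controls and 4.998, 5.39, 5.43 and 5.11 in the mutants. The groups did not overlap, and the fall was 1.39-fold (95% interval 1.18 to 1.64, log2 difference -0.48, SE 0.11, adjusted p = 0.0236). Kcnc1, which encodes Kv3.1, had a log2 difference of 0.12 (95% interval -0.05 to 0.29, adjusted p = 0.571) and Kcnc4 one of 0.06. Relative to Kcnc1, Kcnc2 was lower in every mutant, by 0.60. The call of Kcnc2 ended when control 2, control 3, mutant 1 or mutant 4 was removed (highest adjusted p = 0.0887) and with inferred sex as a covariate (adjusted p = 0.0521).

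Kv3.2 is known from interneurons, and readings of interneuron markers were lower in the same mutant arrays. Of 19 such markers measured, 3 fell (Npy, Dlx1 and Nxph1), 0 rose and 16 did not pass, where 1.79% of all genes fell. Over these 19 markers, 11 had an unadjusted p under 0.05 (limma), 15 differences lay below 0 and the median log2 difference was -0.19. Their summed intensity (2 to the power of each value, added up) ran from 3334 to 3447 in the controls and from 2697 to 2778 in the mutants, and none of the 19 lay at the floor. Npy, a neuropeptide gene, had a log2 difference of -1.63, and without it the sums ran from 2717 to 3039 and from 2456 to 2659. Calb2, which encodes calretinin, lay the other way without overlap, with a difference of 0.86 (adjusted p = 0.122). It read 5.38 on control 1 and 6.72 to 7.06 on the other controls. Gad1, the GABA-synthesising enzyme gene, had a log2 difference of -0.20 (adjusted p = 0.289) and Lhx6, a regulator of interneurons from the medial ganglionic eminence, one of -0.24 (adjusted p = 0.081). The part of interneurons in the fall of Kcnc2 was not tested. In such bulk tissue fewer cells of a type and less RNA per cell cannot be told apart.

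The remaining voltage-gated pore genes did not pass. None of 8 Kcna genes, which encode the Kv1 channels of axons, changed, and 0 had an unadjusted p under 0.05 (limma). Their log2 differences ran from -0.19 (Kcna4, 95% interval -0.48 to 0.09, adjusted p = 0.601) to 0.15 (Kcna1). The Kcna7 values, close to the floor, did not overlap (log2 difference 0.13). Kcnb2, a delayed rectifier gene and the only Kcnb member measured, had a difference of -0.09 (95% interval -0.25 to 0.07). In the Kcnq family, whose members include the subunits of the M current that muscarinic receptors close, Kcnq5 had a difference of -0.27 (95% interval -0.49 to -0.05, adjusted p = 0.222) and Kcnq3 one of -0.13 (adjusted p = 0.645). This was 0 of 3 Kcnq genes past the threshold, with 1 unadjusted p under 0.05.

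The Kcnf, Kcng, Kcns and Kcnv genes encode subunits that form no channel by themselves and modify Kcnb pores. Of these 10 genes 0 passed and 3 had an unadjusted p under 0.05 (limma). Kcnv1 had a log2 difference of -0.35 (95% interval -0.61 to -0.08, adjusted p = 0.174), Kcnf1 one of -0.30 (-0.57 to -0.04, adjusted p = 0.259) and Kcns2 one of 0.29 (0.07 to 0.51, adjusted p = 0.161). The values of Kcns2 did not overlap, whereas those of Kcnv1 and Kcnf1 did. Kcnv1 passed without control 1, as did Kcnf1. The difference of Kcng1 was 0.03 and changed sign when the arrays were shifted to one median.

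Among channels gated by intracellular ions, Kcnmb4 rose. It encodes the neuronal beta subunit of the large-conductance BK channel, which slows the channel's opening and makes it resistant to some scorpion toxins. Its values were 7.71, 7.81, 7.74 and 7.62 in the controls and 8.50, 8.20, 8.11 and 8.24 in the mutants, with mutant 1 the highest and no overlap. The rise was 1.46-fold (95% interval 1.28 to 1.65, log2 difference 0.54, SE 0.08, adjusted p = 0.00185). The BK pore gene Kcnma1 read between 8.56 and 8.71 on all 8 arrays, with a log2 difference of -0.06 (95% interval -0.19 to 0.07, adjusted p = 0.773). Relative to Kcnma1 in the same array, Kcnmb4 shifted from -0.94 ± 0.07 to -0.34 ± 0.16 (SD, n = 4), by 0.60. The other beta subunit genes did not pass, with differences of 0.10 for Kcnmb3 (adjusted p = 0.674) and -0.08 for Kcnmb2.

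An RNA transcribed from the opposite strand, Kcnmb4os2, starts within Kcnmb4 and runs across its start site, 360 bases from its own in RefSeq. It read 5.47, 5.30, 5.36 and 5.11 in the controls and 5.83, 5.74, 5.66 and 5.46 in the mutants. The groups overlapped by a single pair of values, with a log2 difference of 0.36 (SE 0.09, adjusted p = 0.0453). The strand that the labelling kept is not given in the sources used here, so where Kcnmb4 and Kcnmb4os2 overlap their signals cannot be told apart. The call was lost without 6 of 8 single arrays (any but control 1 and mutant 4, highest adjusted p = 0.143), after quantile normalization (adjusted p = 0.0709) and with arrays shifted to one median (0.0694). Kcnmb4os1, another antisense RNA of the locus, had a difference of 0.14 (95% interval -0.04 to 0.32, adjusted p = 0.512). Kcnd3os, a noncoding RNA whose annotated span covers the start of Kcnd3, had one of 0.04 (-0.12 to 0.20, adjusted p = 0.903), beside the 0.79 of Kcnd3 itself.

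Kcnt2, which encodes the sodium-activated Slick channel, had the largest fall of all members. It read 5.81, 5.74, 5.95 and 5.78 in the controls and 4.997, 5.19, 5.22 and 5.43 in the mutants. The groups were well apart, and the fall was 1.52-fold (95% interval 1.34 to 1.74, log2 difference -0.61, SE 0.09, adjusted p = 0.00102). Kcnt1, which encodes the related Slack channel, had a difference of 0.14 (95% interval -0.06 to 0.34, adjusted p = 0.593). Relative to Kcnt1, Kcnt2 shifted by -0.75. Of the 4 Kcnn genes, which encode the SK channels of the afterhyperpolarisation and their intermediate-conductance relative, 0 passed and 2 had an unadjusted p under 0.05 (limma). Kcnn3 had a difference of 0.32 (95% interval 0.12 to 0.52, adjusted p = 0.0875) and Kcnn2 one of -0.17 (adjusted p = 0.299). Kcnn3 passed without control 4.

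Among the 15 inward rectifier genes of the Kcnj family, 1 fell, 1 rose and 13 did not pass. Kcnj3 encodes GIRK1, the subunit shared by most G protein-gated channels through which GABA-B and other receptors silence neurons. It read 7.35, 7.03, 7.32 and 7.35 in the controls and 6.85, 6.68, 6.73 and 6.72 in the mutants, and control 2 lay below the other controls but above all mutants. The fall was 1.43-fold (95% interval 1.27 to 1.62, log2 difference -0.52, SE 0.08, adjusted p = 0.00204). The genes of its partner subunits did not pass: Kcnj6 (GIRK2) had a difference of -0.20 (95% interval -0.37 to -0.04, adjusted p = 0.213), Kcnj9 (GIRK3) one of -0.01 (-0.23 to 0.21, adjusted p = 0.980), and Kcnj5 lay below the floor. Relative to Kcnj6 the shift of Kcnj3 was -0.32, and relative to Kcnj9 it was -0.51, with overlap between the groups in both.

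Kcnj4, a strong inward rectifier gene of forebrain neurons, had a log2 difference of -0.27 (95% interval -0.43 to -0.10, adjusted p = 0.0754) with no overlap between groups. It passed after quantile normalization, with arrays shifted to one median and without the dimmest 50% of genes. Relative to Kcnj4, Kcnj3 shifted by -0.25 with overlap, the only one of the 10 subfamily pairs that did not separate the groups. Kcnj16 encodes Kir5.1, which joins Kir4.1, the product of Kcnj10, in glia and epithelia. It read 4.52, 4.52, 4.54 and 4.51 in the controls and 4.73, 4.89, 4.96 and 4.91 in the mutants. The controls were almost identical and lay close to the floor of 4.31, all mutants were higher, and the rise was 1.27-fold (95% interval 1.15 to 1.40, log2 difference 0.35, SE 0.07, adjusted p = 0.00782). Kcnj10 had a difference of -0.11 (95% interval -0.38 to 0.16, adjusted p = 0.808), and the shift of Kcnj16 relative to it was 0.45 with overlap.

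Glial and vascular markers are given beside these genes because Kcnj10 and Kcnj16 are known from astrocytes and Kcnj8 from mural cells. Over all genes tested, 2789 of 19938 had an unadjusted p under 0.05 (limma). Of 11 astrocyte markers 0 passed, with 7 differences below 0 and a median log2 difference of -0.03. Gfap (-0.32) and Aldoc (-0.29) were the 2 with an unadjusted p under 0.05 (limma). The summed intensity of the list was 5919 to 6535 in the controls and 5592 to 6568 in the mutants. Fabp7, the brightest of the list at 12.2 in both groups (log2 difference -0.03), made up most of each sum. Gjb6 alone lay at the floor. Of 7 mural cell markers 0 passed and 1 had an unadjusted p under 0.05 (limma), with a median of -0.05 and summed intensities of 448 to 470 and 424 to 464. Of 8 endothelial markers 0 passed and 3 had an unadjusted p under 0.05 (limma), with 7 differences below 0, a median of -0.13 and sums of 986 to 1075 and 894 to 986. Of 7 oligodendrocyte lineage markers 0 passed and 2 had an unadjusted p under 0.05 (limma), with 5 differences below 0, a median of -0.05 and sums of 615 to 734 and 547 to 629. Mog lay at the floor. The part of these cells in the differences of the channel genes was not tested. Kcnj8, the pore of the vascular ATP-sensitive channel, had a difference of -0.14 (95% interval -0.31 to 0.03, adjusted p = 0.497).

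None of the 14 Kcnk leak channel genes passed, and 2 had an unadjusted p under 0.05 (limma). Kcnk10, which encodes the TREK2 channel opened by stretch and lipids, read between 8.43 and 8.64 in the controls and between 8.67 and 8.93 in the mutants. These ranges did not overlap, with a log2 difference of 0.28 (95% interval 0.11 to 0.44, adjusted p = 0.0663). It passed after quantile normalization, with an intensity trend and robust variances, and without the dimmest 50% of genes. Kcnk9, which encodes the acid-sensitive TASK3 channel, had the largest difference of the family, 0.45, but its controls ranged from 5.39 to 6.52 (95% interval 0.07 to 0.83, adjusted p = 0.243). It passed without control 2. Over the 14 genes the differences ran from -0.11 to 0.45 with a median of 0.08, and 10 were above 0.

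The auxiliary subunit genes outside the Kcnmb family did not pass either. Of the 12 genes of the Kcnip, Kcnab and Kcne families 0 changed and 1 had an unadjusted p under 0.05 (limma), and 4 of the 5 Kcne genes lay at or below the floor. Kcnab3, which encodes a cytoplasmic beta subunit of Kv1 channels, had a log2 difference of -0.30 (95% interval -0.49 to -0.11, adjusted p = 0.0831), and it passed after quantile normalization. Kcne1l had a difference of 0.00 and Kcnrg, a regulator that binds Kv subunits, one of 0.10 (adjusted p = 0.789).

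**Figure D3:**
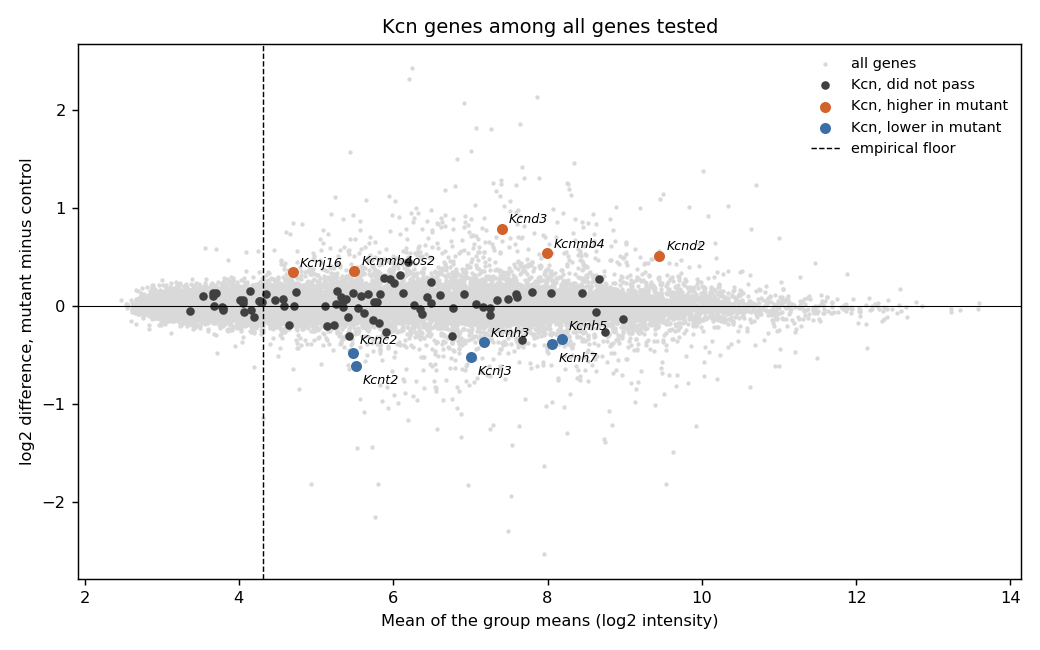
Log2 difference, mutant minus control (vertical axis), against the mean of both group means in log2 intensity (horizontal axis) for all 19938 genes in grey, with the 81 Kcn genes that did not pass in black and the 5 that rose and 6 that fell in colour. The dashed line is the empirical floor of 4.31, and the called Kcn gene nearest to it is Kcnj16.

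A list of 33 genes for channel partners without a Kcn symbol was examined in the same fit. It held auxiliary subunits, hyperpolarisation-activated channels, scaffolds and axonal clustering proteins. Of its 30 measured genes 28 did not pass, 2 fell and 0 rose, where 4.15% of all genes tested changed. The median log2 difference was -0.01, beside 0.02 over all genes. Lrrc55, which encodes a gamma subunit that eases the opening of BK channels, read 6.75, 6.52, 6.28 and 6.51 in the controls and 5.95, 5.68, 5.75 and 5.63 in the mutants. The groups were well apart, and the fall was 1.70-fold (95% interval 1.46 to 1.97, log2 difference -0.76, SE 0.10, adjusted p = 0.000459). The 2 accessory genes of the BK channel that changed, Kcnmb4 and Lrrc55, thus moved in opposite directions in the same arrays. Abcc9, the sulfonylurea receptor that pairs with Kcnj8 in vessels, fell from 6.49 ± 0.09 to 6.17 ± 0.12 (SD, n = 4, log2 difference -0.32, adjusted p = 0.0331), and it lost the call without 6 of 8 single arrays (highest adjusted p = 0.109).

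Hcn2, Hcn3 and Hcn4, which encode the cation channels of the hyperpolarisation-activated current, had log2 differences of 0.08, 0.04 and 0.11. Ank3, which encodes the ankyrin that anchors Kcnq channels at the axon initial segment, had one of -0.16 (95% interval -0.30 to -0.02, adjusted p = 0.268). Cntnap2, which clusters Kv1 channels beside the nodes of Ranvier, had one of -0.21 (-0.50 to 0.08, adjusted p = 0.564).

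Markers of neurons and of cortical layers also differed. A list of 12 measured neuron markers held genes of excitatory neurons and genes that interneurons also express, such as Snap25, Rbfox3, Syt1 and Tubb3. Of these 12 markers 4 fell, 1 rose and 7 did not pass, with a median log2 difference of -0.02. An unadjusted p under 0.05 (limma) was found for 6 of the 12. Those that fell were Snap25 (-0.82), Rbfox3 (-0.63), Slc17a6 (-0.51) and Emx1 (-0.49), and Neurod6 rose (0.70). Their summed intensities were 10259 to 11215 in the controls and 10665 to 10969 in the mutants. Of 11 upper-layer markers 5 fell, 0 rose and 6 did not pass, where 1.79% of all genes fell. Cux2 (-1.29), Mdga1 (-1.07), Pou3f2 (-0.38), Cux1 (-0.35) and Pou3f3 (-0.35) fell. Over the list 7 differences lay below 0, the median was -0.27, and 8 had an unadjusted p under 0.05 (limma). Unc5d (0.46, adjusted p = 0.0659) lay the other way without overlap, and Kitl (0.45, adjusted p = 0.0706) with overlap. Summed intensities of the list were 6826 to 7368 in the controls and 5815 to 6640 in the mutants. Of 11 deep-layer markers 1 rose, 1 fell and 9 did not pass, and 4 had an unadjusted p under 0.05 (limma). The summed intensities of this list were 2451 to 3468 in the controls and 3627 to 4312 in the mutants. The gene that rose was Ldb2 (1.38) and the one that fell Ntsr1 (-0.90), and the median of the list was 0.07. Ldb2 read 8.29 on control 1 and 9.58 to 9.74 on the other controls. Without Ldb2 the sums overlapped, at 2137 to 2611 and 2266 to 2450. Their part in the differences of the Kcn genes was not tested.

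**Figure D4:**
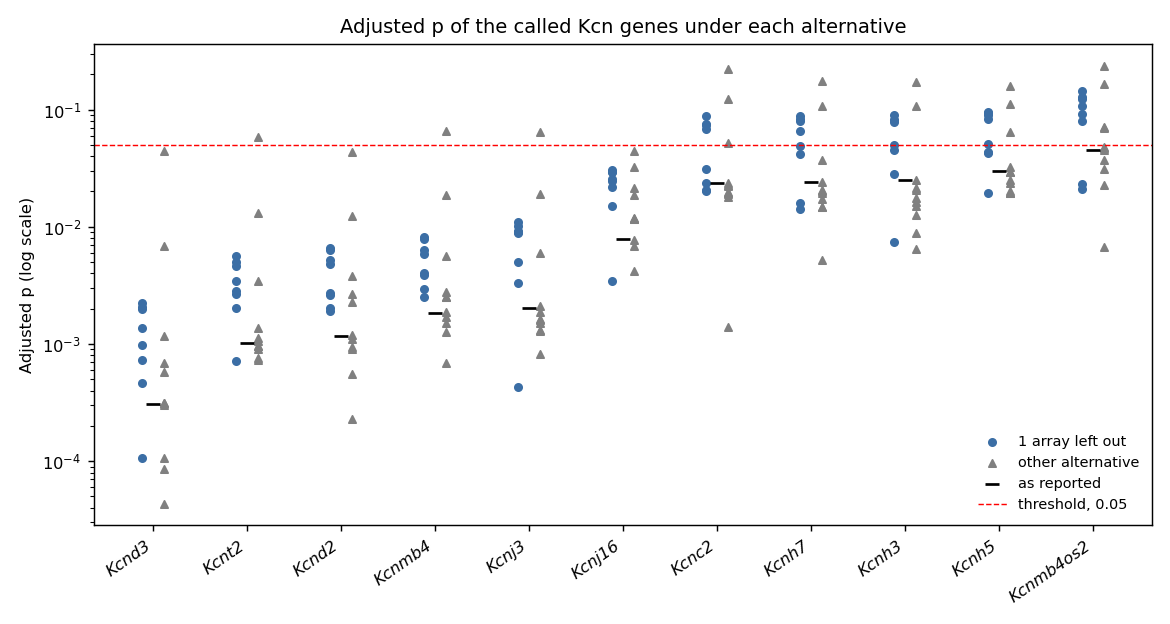
Adjusted p on a log scale (vertical axis) of each of the 11 called Kcn genes as reported, with each single array left out, and under the other alternatives. The dashed line is the threshold of 0.05: Kcnd3, Kcnd2 and Kcnj16 stay under it in every alternative that could be run for them, while Kcnc2, Kcnh7, Kcnh3, Kcnh5 and Kcnmb4os2 cross it when some single arrays are left out.

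Of the 11 calls, 6 were kept whichever single array was left out: Kcnd3, Kcnd2, Kcnt2, Kcnmb4, Kcnj3 and Kcnj16. The highest adjusted p among those fits was 0.00225 for Kcnd3, 0.00655 for Kcnd2, 0.0056 for Kcnt2, 0.00811 for Kcnmb4, 0.0109 for Kcnj3 and 0.0303 for Kcnj16 (limma). Adjusted over all 35556 probe sets of the array, named or not, the same 6 genes passed and the other 5 did not. Without moderation of the variances across genes, Kcnd3, Kcnd2 and Kcnj16 passed (adjusted p = 0.0445, 0.0435 and 0.0441), while Kcnt2, Kcnj3 and Kcnmb4 did not (0.0588, 0.0638 and 0.0656). With inferred sex as a covariate, 9 of the 11 passed and Kcnc2 and Kcnh5 did not (adjusted p = 0.0521 and 0.0645).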

How the data were processed

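Per the labels, RNA was hybridised to Affymetrix mouse gene arrays and analysed with BRB-ArrayTools. Background correction, normalization, summarisation, log base and labelled strand were not given in the sources used here. Values as deposited (2.03 to 13.8) were taken as log2 intensities already normalized by the authors, the log base being inferred from their range. Of 35556 probe sets, 21789 had 1 gene symbol in the platform annotation, 1621 had several and 12146 were unnamed. All 92 Kcn genes matched the GRCm38.p6 gene table by Entrez identifier. Kcna2, Kcnh8 and Kcnma1 had more than 1 probe set. Genotype was fitted with limma 3.58.1 in R 4.3.3 (two-sided, 6.91 prior degrees of freedom, median SE 0.0766, no filter). The number of arrays limits the precision. Marker sums without Npy and without Ldb2 were added after seeing the data. Labels list 4 pups per group, and nothing states whether litters were shared.

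On simulated data for the same 19938 genes the fit recovered 53 of 67 genes changed by 0.5, 66 of 67 changed by 1 and 66 of 66 changed by 2 on the log2 scale, and 10 of 195 calls were unchanged genes. Members and lists were chosen with earlier results of these data known. Named are Bcl11a, each Kcn gene and listed partner past the threshold, and the largest difference above the floor in each subfamily among genes that did not pass, leaving Kcn genes at the floor as counts. Kcnip1 to Kcnip3, Kcnj5, Kcnj6, Kcnj8 to Kcnj10, Kcnh1, Kcnh2, Kcnh8, Kcna1, Kcna7, Kcnc4, Kcnd3os, Kcnf1, Kcnk10, Kcnma1, Kcnmb2, Kcnn2, Kcnq3 and the partners that did not pass were named after their values had been seen.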

Additional observations from a re-analysis of the deposited data

Results flagged for a closer look

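In 68 groups of 4 arrays, 1 for each genotype of each named gene, 6 held an array far from the other 3 (gap over range above Dixon's 95% critical value), where chance gives about 1 group in 20. Kcnd2 read 9.57 on mutant 4 and 9.74 to 9.76 on the other mutants. Kcnj3 read 7.03 on control 2 and 7.32 to 7.35 on the other controls. Kcnip4 read 7.68 on mutant 4 and 7.91 to 7.96 on the others. On mutant 2, Kcnk9 read 6.17 (others 6.47 to 6.54), Kcnmb3 read 5.85 (others 5.52 to 5.58) and Kcnrg read 5.70 (others 5.23 to 5.30). Without mutant 4 the rise of Kcnd2 was kept, and without control 2 so was the fall of Kcnj3.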

How the results depend on the processing

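The direction of every called Kcn gene held in each alternative run, and Bcl11a stayed between -1.89 and -1.73. Over all genes the 827 calls became 442 when adjusted over all probe sets, 249 without variance moderation and 447 at an adjusted p under 0.01. The 5 Kcn genes that rose became 3 without moderation and 8 at an adjusted p under 0.1. The 6 that fell became 2 over all probe sets, 0 without moderation (11 at an unadjusted p under 0.05) and 2 at an adjusted p under 0.01. The 2 changed partner genes became 1 over all probe sets, 0 without moderation (5 unadjusted) and 1 at 0.01. With single arrays left out, the rises ran from 4 to 5, the falls from 3 (without control 4 or mutant 4) to 8 (without control 1), the changed partners from 1 to 2 and all calls from 584 to 814. The cause of these moves was not tested.

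Shifting arrays to one median moved the median of all genes by -0.04. Under quantile normalization or one median, 7 Kcn genes changed sign, each with a difference of at most 0.028 in size as deposited. Kcnip1, given in the report, was 1 of them. The other alternatives were followed only for genes named by rule, and 3 of those changed sign in some setting. Kcne1l was -0.022 (quantile normalization), -0.035 (one median), -0.0083 (sex) and -0.031 to 0.061 over single arrays left out. Kcng1 was -0.0076 (one median), -0.0012 (array weights), -0.0088 (sex) and -0.021 to 0.11 over single arrays. Kcnrg was -0.012 without mutant 2 and up to 0.159 without other arrays. Whether replicate numbers pair the arrays was not settled. Correlations of same-numbered arrays were 0.109, 0.0558, 0.295 and 0.149, so that 1 of 4 missed the required 0.1. Of 8 arrays, 6 correlated best with their own number. The samples are also listed as control then mutant of each number, but that order does not state a pairing. With the replicate block 987 genes and 13 Kcn genes passed, 6 higher and 7 lower. All 11 were kept and Kcnn3 and Kcnv1 were added. For calls that depended on single arrays, the block gave an adjusted p (limma) of 0.00139 for Kcnc2, 0.00523 for Kcnh7 and 0.0164 for Kcnh3. It was 0.0321 for Kcnh5 and 0.00678 for Kcnmb4os2. Without the dimmest 50% of genes Kcnj16, Kcne1l and Kcnrg were among those not tested.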
